A study of Mus musculus with 12 samples.

Results

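The Hoxb genes are the members of the Hoxb cluster on mouse chromosome 11, here Hoxb1 to Hoxb9 without gaps. They were listed by name, but earlier results of these data were known when the set was chosen. All 9 were present among the 24028 genes of both deposited count tables. RNA had been sequenced from 12 libraries of C57BL/6 bone marrow cells, 3 in each of 4 groups. The wt LSK group came from wild-type control mice, whose marrow was first rid of lineage-marked cells and then sorted by c-Kit with Sca-1, a gate that holds blood stem cells and early progenitors. The other 3 groups came from mice that carry a knock-in of MLL-ENL, the product of a leukemia translocation that joins the Kmt2a gene to Mllt1, under doxycycline control. These mice received doxycycline until acute leukemia developed. Their cells were taken from total marrow (iMLL-ENL total) or sorted for high or low surface B220 (B220 HIGH and B220 LOW), a CD45 isoform carried by B cells and some other cells.

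Several limits of these groups bear on every result. The labels give 3 animals per genotype, tie no library to an animal, and state no age, no promoter for the inducible allele and no drug treatment of the controls. P-values therefore measure the spread between libraries, part of which may be technical. The sort, the genotype and, as far as stated, the drug change together from wt LSK to iMLL-ENL total, so their parts in a difference cannot be told apart. In these bulk samples fewer cells of a type and less RNA per cell cannot be told apart either.

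Hox proteins are homeodomain transcription factors that bind DNA together with cofactors of the TALE class, such as Pbx and Meis proteins. Their genes lie in clusters, all transcribed in one direction, and the order along the chromosome follows the order of expression along the body axis in the embryo. In bone marrow, Hoxb genes near the 3' end and middle of the cluster are known for their expression in stem and progenitor cells. Forced Hoxb4 expands hematopoietic stem cells, and Hoxb5 is used as a marker of long-term stem cells. MLL fusions are best known for keeping Hoxa genes and Meis1 active in leukemia.

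On GRCm38 the cluster runs along the plus strand of chromosome 11 from Hoxb9 (chr11:96271330-96276595) at its 5' end through Hoxb8 (chr11:96279401-96285325), Hoxb7 (chr11:96285604-96290163), Hoxb6 (chr11:96292814-96301569) and Hoxb5 (chr11:96303512-96306121). It goes on with Hoxb3 (chr11:96307101-96347930), whose span encloses Hoxb4 (chr11:96318267-96321638), and ends with Hoxb2 (chr11:96351632-96354020) and Hoxb1 (chr11:96365746-96368254). The library kit did not keep strand. By the GENCODE M21 gene models, 52.9% of the exonic bases of Hoxb3 and 27.3% of those of Hoxb2 lie in exons of the antisense gene Hoxb3os, and 3.59% of those of Hoxb5 lie in exons of Hoxb5os. Counts of Hoxb3, Hoxb2 and Hoxb5 may therefore hold antisense reads, and Hoxb3os and Hoxb5os were not analysed here. The gene models behind the counts can differ from GENCODE. The deposited width is 3721 bases for Hoxb3, against 4251 exonic bases in GENCODE, and 1629 against 3488 for Hoxb2. By GENCODE, Hoxb4 and the other members share no exonic base with another gene.

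The RefSeq promoter table for GRCm38.p6 held 3 of the 9 members: Hoxb4, the member with the most counts in these libraries, and Hoxb1 and Hoxb8, which had 0 counts and 1 count over all 12. They are printed because they set the promoter of the most expressed member beside those of members with no or almost no reads. Each stretch is the 250 bases before the start in that table, 5' to 3' on the plus strand, at chr11:96318017-96318266 for Hoxb4, chr11:96365508-96365757 for Hoxb1 and chr11:96281655-96281904 for Hoxb8. The start in that table is not always the start of the gene span given above. The Hoxb4 stretch ends just before its span, and the Hoxb1 stretch runs into the first bases of its span. The Hoxb8 stretch lies wholly inside its span, so the 3 stretches are not alike in place. Capitals mark matches, on either strand, to any of the 5 motifs searched, and no match overlaps another.
Hoxb4: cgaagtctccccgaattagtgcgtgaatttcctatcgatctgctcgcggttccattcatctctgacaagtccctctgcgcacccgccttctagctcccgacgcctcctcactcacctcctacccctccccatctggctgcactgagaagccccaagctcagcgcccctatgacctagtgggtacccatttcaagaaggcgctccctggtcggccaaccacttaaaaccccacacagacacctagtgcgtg
Hoxb1: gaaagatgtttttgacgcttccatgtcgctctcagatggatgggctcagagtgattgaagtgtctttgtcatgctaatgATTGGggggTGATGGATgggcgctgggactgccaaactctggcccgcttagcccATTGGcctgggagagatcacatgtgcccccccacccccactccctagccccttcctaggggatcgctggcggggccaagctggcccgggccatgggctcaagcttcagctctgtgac
Hoxb8: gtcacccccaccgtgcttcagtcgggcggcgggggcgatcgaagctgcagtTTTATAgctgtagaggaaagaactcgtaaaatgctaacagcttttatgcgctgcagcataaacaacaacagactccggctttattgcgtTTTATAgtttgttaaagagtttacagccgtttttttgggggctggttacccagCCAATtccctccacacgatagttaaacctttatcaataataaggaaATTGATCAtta

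The motifs searched were the E-box CACGTG bound by USF proteins, the CCAAT box, the Pbx-Hox site TGATNNAT, the Meis site TGACAG and the TATA box TATAAA. Among the 32851 promoters of the same length, 6.02% hold CACGTG, 33.8% CCAAT, 7.68% TGATNNAT, 15.9% TGACAG and 12.4% TATAAA. The Hoxb4 stretch holds 0 matches to any of the 5. The Hoxb1 stretch holds CCAAT on the minus strand at 171 and 117 bases before the start and a Pbx-Hox match, TGATGGAT, at 162 bases. The Hoxb8 stretch holds CCAAT at 57 bases, a Pbx-Hox match (ATTGATCA as printed) at 11 bases, and TATAAA on the minus strand at 199 and 110 bases. A match describes letters in this window and is not a binding site. The GC content is 58.0% for Hoxb4, 59.2% for Hoxb1 and 44.4% for Hoxb8, against a median of 52.4% over all promoters. The CpG counts of 14, 7 and 12 lie above the median of 6.

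The wt LSK libraries held 18227843 to 19607722 counts each. Those of iMLL-ENL total held 18001563 to 22706882, those of B220 HIGH 10921521 to 20069503 and those of B220 LOW 13441696 to 16626820. Levels are given as CPM, each count scaled to the total of its library. A count of 0 over a group allows up to 3 counts, hence 0.0531 CPM across the wt LSK libraries, 0.0482 across iMLL-ENL total, 0.0591 across B220 HIGH and 0.0662 across B220 LOW. These limits and the intervals given here cover counting error only. The 12 stem cell and LSK markers summed to 3677 to 4296 CPM over wt LSK, against 340 to 974 CPM in the leukemic libraries. Mecom, one of them, was at 105 to 184 CPM in wt LSK and at most 0.824 CPM in any leukemic library. The 12 granulocyte and monocyte markers summed to 1374 to 2340 CPM in wt LSK, against 7743 to 26081 CPM in iMLL-ENL total, and their part in the Hoxb differences was not tested. Markers of B cells were low in the B220 sorts, where the 10 B-lineage markers summed to at most 88.0 CPM, against 308 to 1299 CPM in wt LSK.

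Over the 12 libraries the 9 Hoxb genes had 2733 counts together, of which Hoxb4 took 1534 and Hoxb3 took 949. In wt LSK, 7 of the 9 had at least 1 count, against 3 in iMLL-ENL total, 4 in B220 HIGH and 3 in B220 LOW. Hoxb1 and Hoxb9, at the ends of the cluster, had 0 counts in every library, which over all 12 libraries allows up to 0.0140 CPM. Hoxb8 had 1 count, in wt LSK 1. The leukemic libraries thus held reads from Hoxb3, Hoxb4 and Hoxb7 and a single read from Hoxb5.

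**Figure D1:**
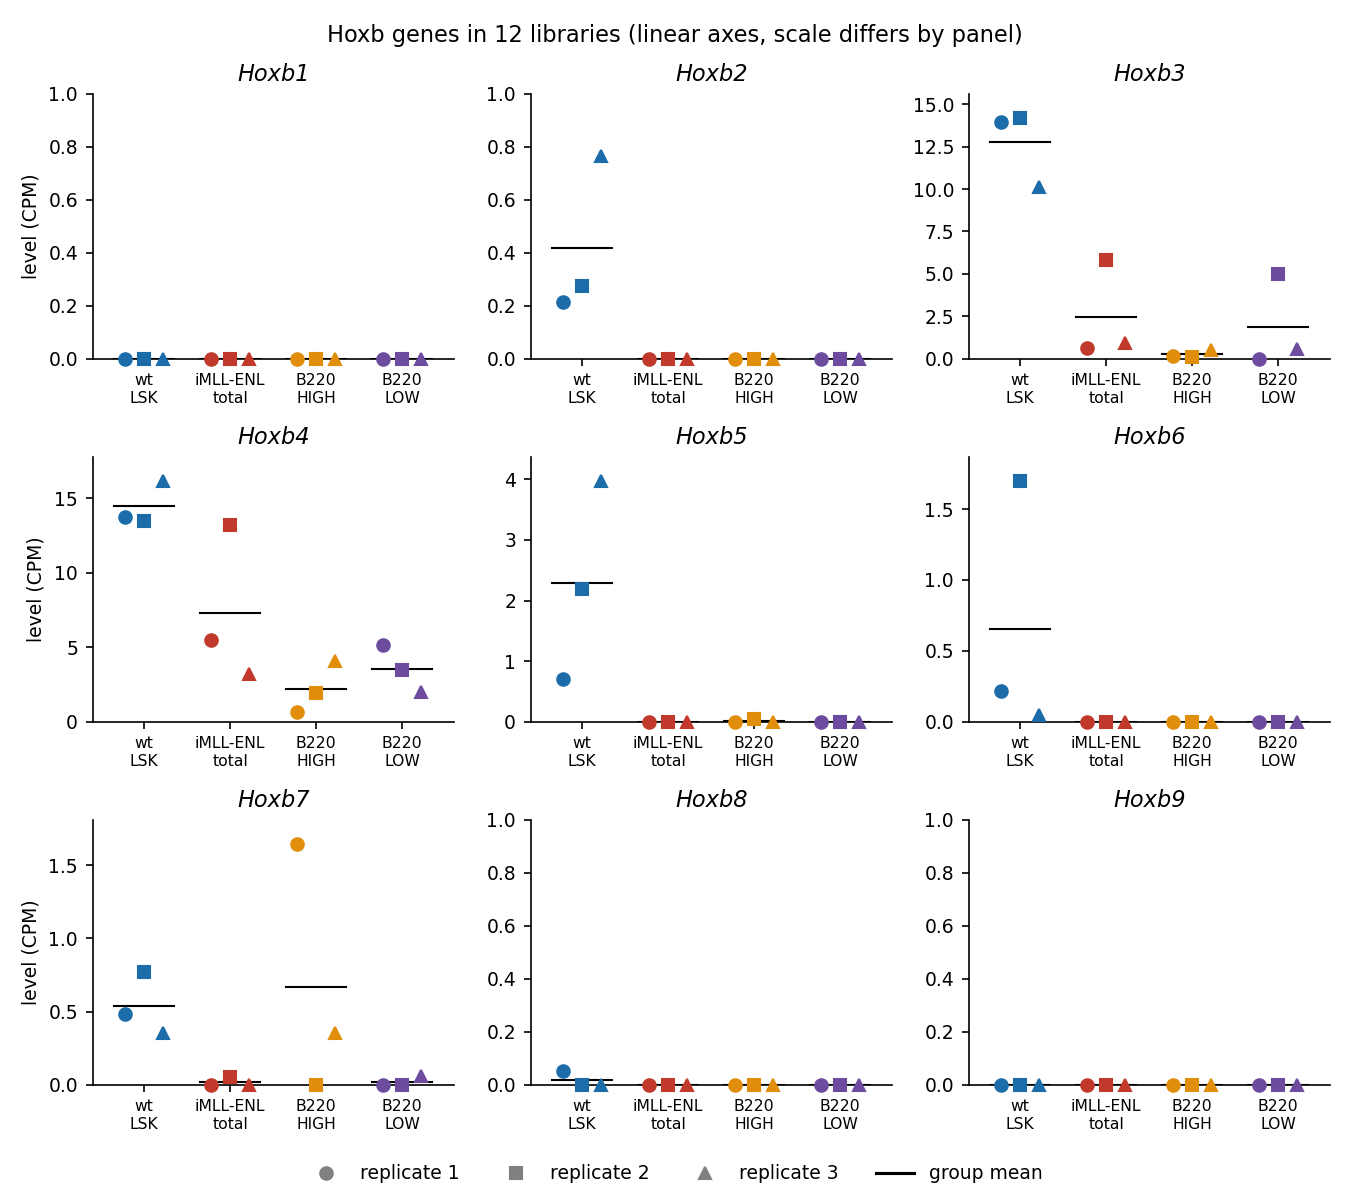
CPM of each Hoxb gene in each of the 12 libraries, 1 panel per gene, with points for libraries, coloured by group and shaped by replicate number, lines at the group mean, and a scale that differs by panel. Hoxb3 and Hoxb4 are the members with reads in nearly all libraries, Hoxb2, Hoxb5 and Hoxb6 have reads in wt LSK and at most 1 count elsewhere, and Hoxb1 and Hoxb9 lie at 0.

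Hoxb4 had reads in all 12 libraries. It stood at 13.7, 13.4 and 16.2 CPM in wt LSK 1, 2 and 3, against 5.51, 13.2 and 3.21 CPM in iMLL-ENL total. It stood at 0.641, 1.94 and 4.10 CPM in B220 HIGH and at 5.17, 3.50 and 1.98 CPM in B220 LOW. Every wt LSK library thus lay above every leukemic library, but iMLL-ENL total 2 at 13.2 CPM came close to wt LSK 2 at 13.4 CPM. With the authors' effective library sizes in place of the totals, these libraries changed order, with 13.4 CPM in iMLL-ENL total 2 and 12.4 CPM in wt LSK 2. In falling order, the wt LSK mean was 14.5 ± 1.49 CPM, that of iMLL-ENL total 7.32 ± 5.24, that of B220 LOW 3.55 ± 1.59 and that of B220 HIGH 2.23 ± 1.74 (SD, n = 3 each). In this order each leukemic group overlapped its neighbour.

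Hoxb3 encodes a paralog expressed with Hoxb4 in progenitors. It stood at 14.0, 14.2 and 10.1 CPM in wt LSK, a mean of 12.8 ± 2.28 (SD, n = 3). In iMLL-ENL total it was at 0.649, 5.83 and 0.925 CPM, a mean of 2.47 ± 2.92, and all 3 libraries lay below all 3 of wt LSK. In B220 LOW it was at 0, 4.98 and 0.601 CPM and in B220 HIGH at 0.183, 0.0997 and 0.506 CPM. The leukemic levels were uneven, since the libraries numbered 2 of iMLL-ENL total and B220 LOW held 105 and 67 of the 231 leukemic Hoxb3 counts.

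Hoxb5 stood at 0.698, 2.19 and 3.98 CPM in wt LSK, a mean of 2.29 ± 1.64 (SD, n = 3), from 13, 40 and 78 counts. Over the 9 leukemic libraries it had 1 count, in B220 HIGH 2. The wt LSK libraries differed widely among themselves, and none of them overlapped a leukemic library.

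Hoxb2 and Hoxb6 had reads in wt LSK alone. Hoxb2, a gene of hindbrain patterning, had 4, 5 and 15 counts there, which is 0.215, 0.274 and 0.765 CPM. Hoxb6 had 4, 31 and 1 counts, which is 0.215, 1.70 and 0.0510 CPM, so wt LSK 2 held most of its reads. That library also had the highest marker sums of its group for 5 of the lists. The B-lineage sum was 1299 CPM against 367 and 308 CPM in wt LSK 1 and 3, the T-lineage sum 58.6 against 23.0 and 27.1, and the plasmacytoid dendritic cell sum 850 against 448 and 433. The granulocyte and monocyte sum was 2340 against 1374 and 1639 CPM, and that of stroma and endothelium 204 against 147 and 163. The part of these lists in the Hoxb6 level was not tested. The 9 leukemic libraries had 0 counts of Hoxb2 and of Hoxb6, which allows up to 0.0189 CPM.

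Hoxb7 differed from these members in where its reads lay. It had 9, 14 and 7 counts in wt LSK, a mean of 0.536 ± 0.211 CPM (SD, n = 3). In B220 HIGH it had 18, 0 and 7 counts, which is 1.65, 0 and 0.354 CPM and a mean of 0.667 ± 0.868. It had 1 count in iMLL-ENL total 2 and 1 in B220 LOW 3, and 0 in the other 4 libraries of these groups. B220 HIGH 1 thus held the highest Hoxb7 level of the 12 libraries, and wt LSK and B220 HIGH overlapped.

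Per kilobase of the deposited gene width, which lets genes be compared, Hoxb4 led in wt LSK with 5.63 ± 0.582 CPM per kb. Hoxb3 followed with 3.43 ± 0.612 and Hoxb5 with 1.21 ± 0.866 CPM per kb (SD, n = 3 each), and the libraries of these 3 genes did not overlap. Hoxb6 at 0.496 ± 0.687, Hoxb7 at 0.422 ± 0.166 and Hoxb2 at 0.257 ± 0.185 CPM per kb came next, each overlapping its neighbour, and Hoxb6 overlapping Hoxb5. In wt LSK the level was thus highest at the central genes Hoxb4 and Hoxb3 and lower toward both ends of the cluster. In the leukemic groups Hoxb4 also had the highest mean, at 2.85 ± 2.04 CPM per kb in iMLL-ENL total, 1.38 ± 0.622 in B220 LOW and 0.868 ± 0.680 in B220 HIGH. Its libraries overlapped there with those of the next member, which was Hoxb3 at 0.663 ± 0.784 in iMLL-ENL total and 0.500 ± 0.731 in B220 LOW, and Hoxb7 at 0.526 ± 0.684 in B220 HIGH.

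**Figure D2:**
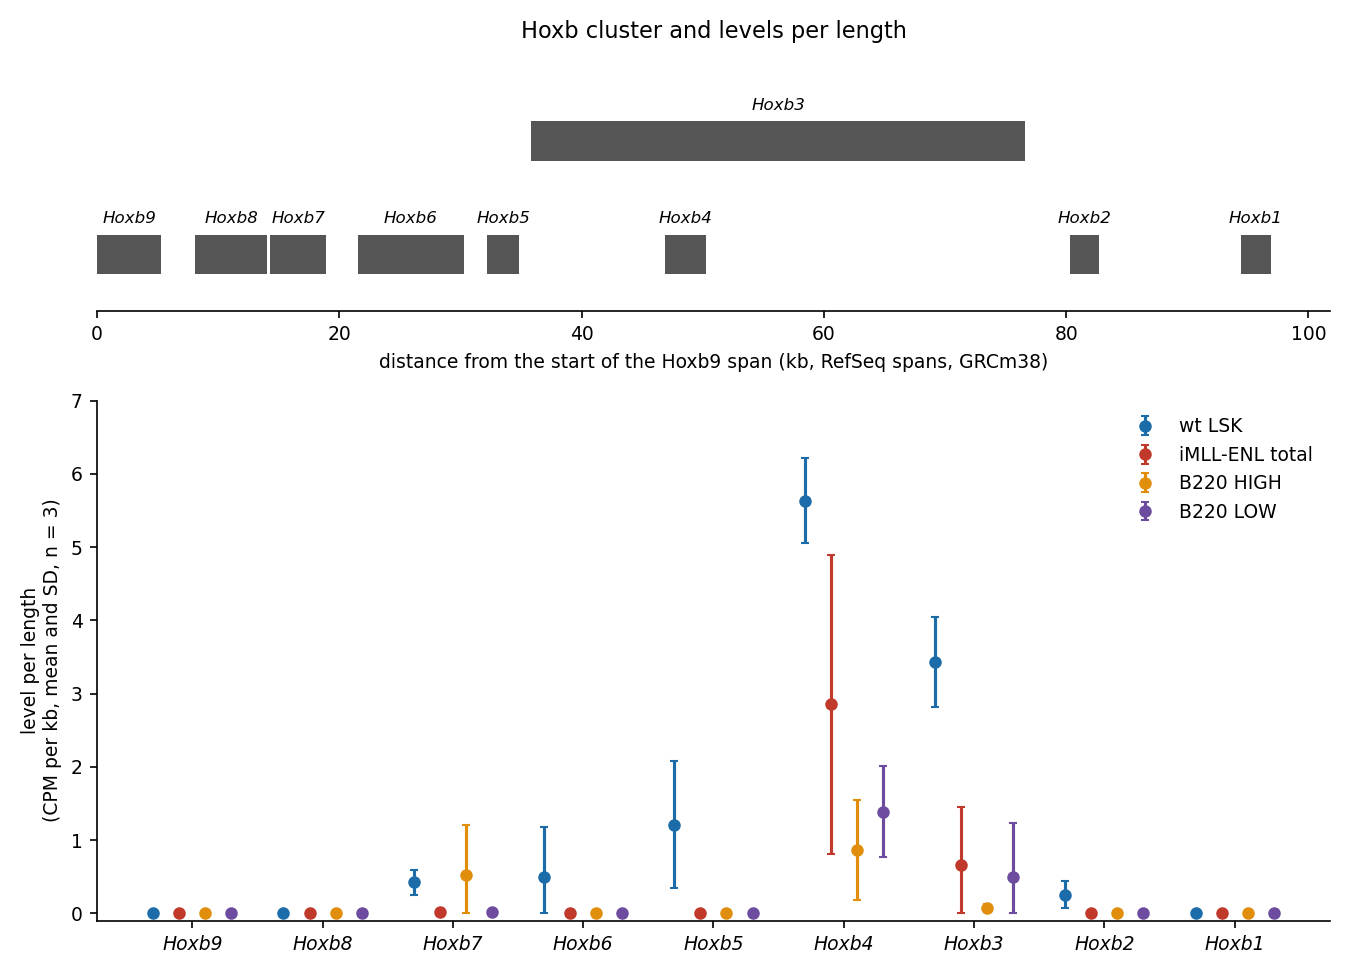
The upper panel maps the spans of the 9 genes in kb from the Hoxb9 start, and the lower panel gives the mean CPM per kb of each gene in each group, with bars of 1 SD (n = 3) that stop at 0. The wt LSK means are highest at Hoxb4 and Hoxb3, 5.63 and 3.43 CPM per kb, and the leukemic means are at most 2.85 CPM per kb.

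Summed over the 9 genes, the Hoxb level was 29.4, 32.6 and 31.5 CPM in wt LSK, a mean of 31.1 ± 1.63 (SD, n = 3). It was 6.16, 19.1 and 4.14 CPM in iMLL-ENL total, 5.17, 8.48 and 2.65 in B220 LOW, and 2.47, 2.09 and 4.96 in B220 HIGH. All wt LSK libraries lay above all 9 leukemic ones, and the 3 leukemic groups overlapped. Libraries of these 3 groups with the same replicate number deviated together, though only weakly for iMLL-ENL total 3. Within these numbers, iMLL-ENL total lay above B220 LOW in 3 of 3 pairs for the sum, for Hoxb3 and for Hoxb4. It lay above B220 HIGH in 2 of 3 pairs for the sum and for Hoxb4 and in 3 of 3 for Hoxb3, and no test was made of these pairs, which cross the count tables. The sums in wt LSK were close together although Hoxb5 and Hoxb6 varied among these libraries.

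The library with the highest leukemic sum, iMLL-ENL total 2, had the highest leukemic levels of both Hoxb3 and Hoxb4. Its stem cell and LSK markers summed to 401 CPM, within the range of 390 to 626 CPM of its group. Mecom was at 0.111 CPM and Hlf, another stem cell gene, at 1.78 CPM there, against 744 to 1010 CPM of Hlf in wt LSK, and Hoxb5 had 0 counts. Its 6 T-lineage markers summed to 26.0 CPM against 7.60 and 4.84 CPM in iMLL-ENL total 1 and 3, and its granulocyte and monocyte markers to 26081 CPM against 7743 and 14712 CPM. The part of either marker list in the Hoxb levels was not tested.

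**Figure D3:**
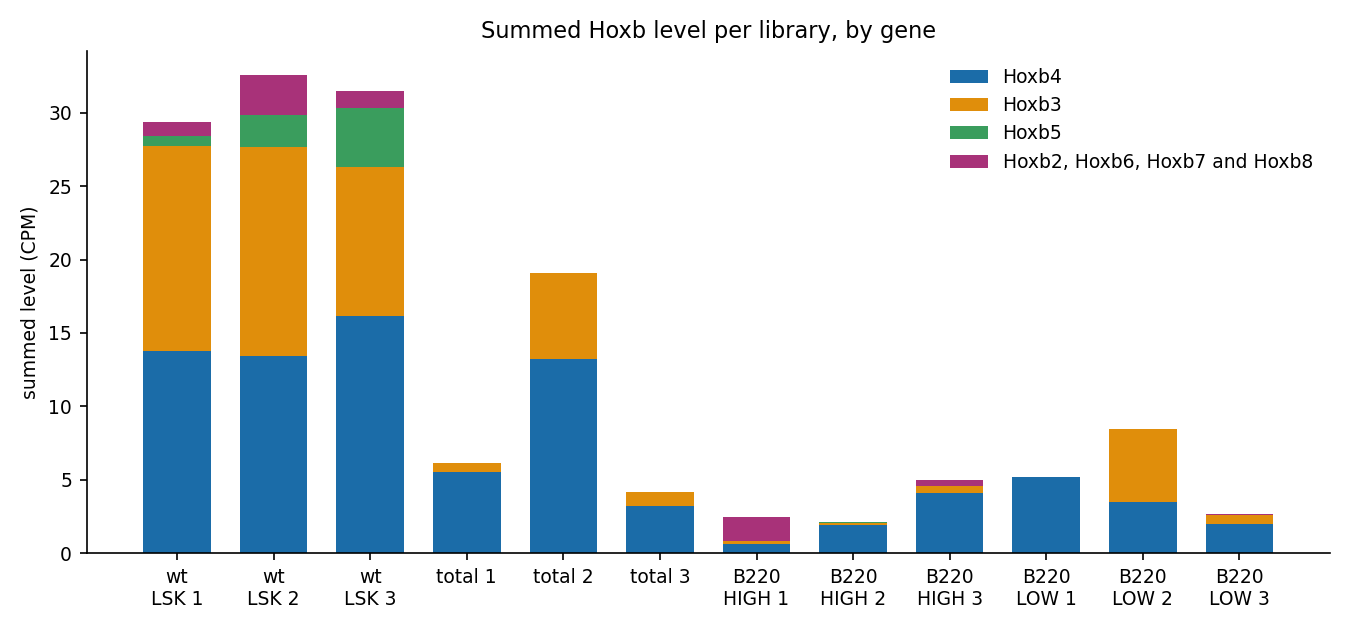
Summed CPM of the 9 Hoxb genes in each library, with each bar divided by gene. The 3 wt LSK bars stand at 29.4 to 32.6 CPM, and the leukemic bars reach at most 19.1 CPM and hold mainly Hoxb4 and Hoxb3, except in B220 HIGH 1, where Hoxb7 (in the purple segment) at 1.65 CPM is the larger part.

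The makeup of the sum was uneven as well, and no test was made of it. Hoxb4 took 46.8%, 41.2% and 51.4% of the Hoxb counts in wt LSK 1, 2 and 3, a mean of 46.5 ± 5.07% (SD, n = 3). In iMLL-ENL total it took 89.5%, 69.2% and 77.7%, a mean of 78.8 ± 10.2%, all above the wt LSK libraries. The sorted groups were not uniform, with 25.9%, 92.9% and 82.7% in B220 HIGH and 100%, 41.2% and 75.0% in B220 LOW. In B220 LOW 1 all 79 Hoxb counts were Hoxb4, with an exact 95% interval of 95.4% to 100%, and in B220 LOW 2 Hoxb3 took the larger share of 58.8%.

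The first comparison asked how leukemic total marrow differs from normal LSK cells. Hoxb5 fell to 0 counts in iMLL-ENL total from 131 in wt LSK, at least 48.2-fold lower when the group is given a floor of 3 counts. Hoxb3 and Hoxb4 had lower levels that did not pass the test. Of the 9 members, 3 had enough reads to be tested, and 1 of these 3 was called lower and none higher. Over all 13811 genes tested, 30.6% were called, 15.1% lower and 15.5% higher, by edgeR's quasi-likelihood test at a Benjamini-Hochberg adjusted p under 0.05. Hoxb5 passed the filter on low counts only through wt LSK.

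For Hoxb5 the fitted log2 fold change was -8.41 (SE 1.46, adjusted p = 0.00667 by edgeR's quasi-likelihood test), a size that depends on the prior count because iMLL-ENL total had no reads. Leaving out 1 library at a time moved the bound between 29.9 and 64.8, the first without wt LSK 3 and the second without wt LSK 1. It was also 30.6 without iMLL-ENL total 3 and 31.5 without iMLL-ENL total 1. Over 13 alternatives the edgeR, DESeq2 and limma-voom adjusted p ran from 1.1e-05 to 0.0309. Since its reads in wt LSK alone brought Hoxb5 through the filter, it could only come out lower, and these p-values describe the gap without adding support.

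For Hoxb3 the log2 fold change was -2.23 (SE 0.787, edgeR adjusted p = 0.0628), lower in 3 of 3 leukemic libraries. Without iMLL-ENL total 2 it was -3.84 with an adjusted p of 0.000647. Hoxb3 was also called by DESeq2 (adjusted p = 0.00851), by limma-voom (adjusted p = 0.00957) and by edgeR when the replicate numbers entered as a block (adjusted p = 0.0281). Called lower over all genes were 16.0% without iMLL-ENL total 2, 18.7% by DESeq2, 17.3% by limma-voom and 14.9% with the block. Over all alternatives the adjusted p of Hoxb3 ran from 0.000647 to 0.275. By the GENCODE M21 models 52.9% of its exonic bases are shared with Hoxb3os, and the part of antisense reads in this difference was not tested.

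For Hoxb4 the log2 fold change was -0.84 (SE 0.501, edgeR adjusted p = 0.244). Without iMLL-ENL total 2 it was -1.57 with an adjusted p of 0.0130, the only one of its 13 alternatives with a call. In both genes iMLL-ENL total 2 was the highest leukemic library. Hoxb4 was called only when it was left out, and Hoxb3 also by the alternatives above that kept it.

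From Hoxb2 to Hoxb7, 6 of the 9 members had every wt LSK library above every iMLL-ENL total library in CPM of the library total. Over the 19378 genes with at least 1 count in this comparison, 23.9% had this pattern. Those genes include 7 of the 9 members, since Hoxb1 and Hoxb9 had 0 counts. Hoxb2, Hoxb5 and Hoxb6 had 0 counts in iMLL-ENL total, so they could show such a gap in this direction only. With the authors' effective sizes Hoxb4 leaves this set, and for Hoxb6 it rests on 1 count in wt LSK 3. For Hoxb2, Hoxb6 and Hoxb7 the counts were too few for the filter. Hoxb2 was at least 8.83-fold lower in iMLL-ENL total (24 against 0 counts), a bound of 5.07 without wt LSK 3, 5.61 without iMLL-ENL total 3 and 5.77 without iMLL-ENL total 1. Hoxb6 was at least 13.2-fold lower (36 against 0 counts), but without wt LSK 2 only 5 counts remained and the bound was 2.72. Leaving out iMLL-ENL total 1 or 3 gave a Hoxb6 bound of 8.65 or 8.41. Hoxb7 had 30 counts against 1, 33.1 times as many once scaled to the group totals (95% counting interval 5.50 to 1350.5), a ratio of 21.6 or 21.0 without iMLL-ENL total 1 or 3, and at least 7.85-fold without iMLL-ENL total 2, which held the 1 count. When all genes were tested without the filter, their edgeR adjusted p was 0.0530 for Hoxb2, 0.0530 for Hoxb6 and 0.0673 for Hoxb7, and 10.9% of all genes were called lower. These 3 genes entered that test through their wt LSK reads, but for the 1 count of Hoxb7. They could hardly come out other than lower, so these p-values describe the gap without adding support.

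**Figure D4:**
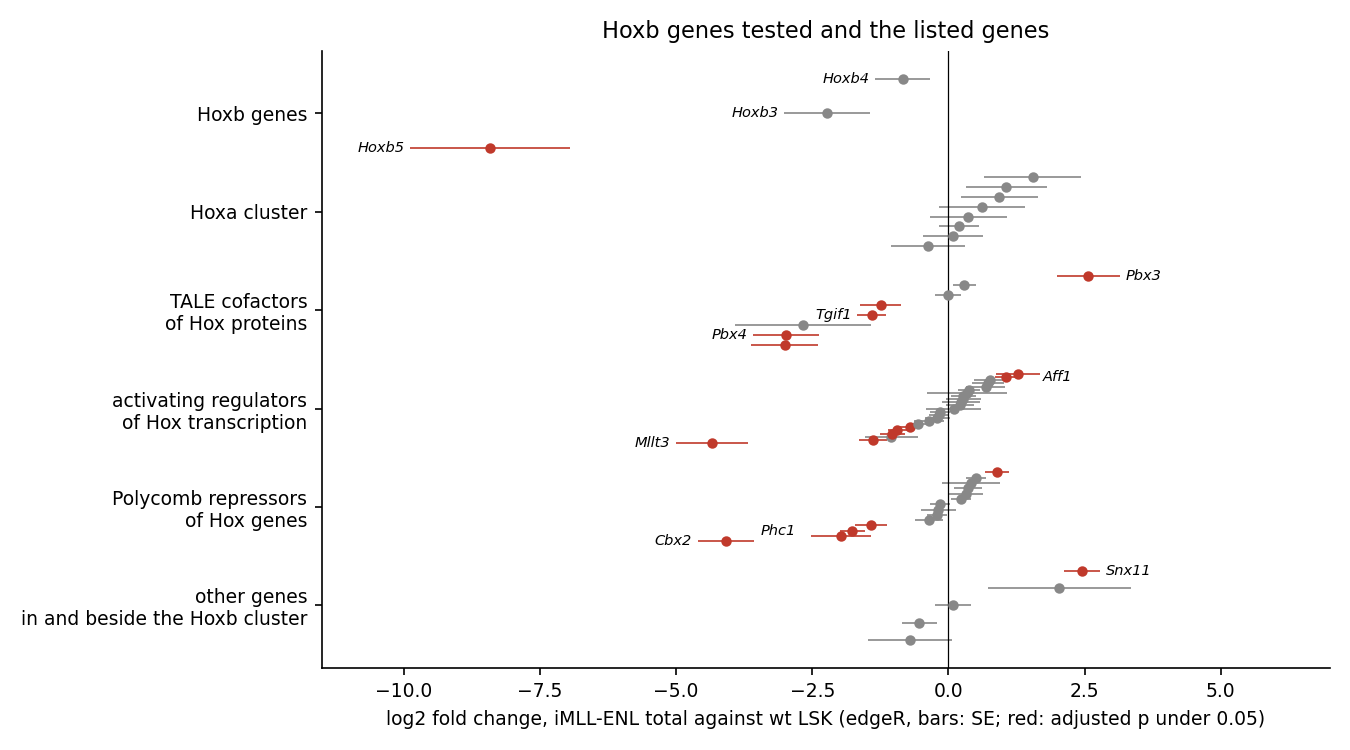
Log2 fold change of iMLL-ENL total against wt LSK by edgeR, with SE bars, for the tested Hoxb genes and the tested and reported genes of each list, red where the adjusted p was under 0.05. Hoxb5 lies at -8.41, a fitted value against a group with 0 counts, and Hoxb3 and Hoxb4 at -2.23 and -0.84.

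The second comparison set the B220 HIGH fraction of the leukemia against the B220 LOW fraction. No Hoxb gene was called. Hoxb4, the only member of the 9 with enough reads, had a log2 fold change of -0.53 (SE 1.04, edgeR adjusted p = 0.967), and its libraries overlapped. Over 13 alternatives that value ran from -1.35 to -0.07 with no call. Of the 12564 genes tested, edgeR's quasi-likelihood test called 0, which is 0%, with 880 at an unadjusted p under 0.05. DESeq2 called 232, which is 1.85%, and limma-voom 0. With the replicate number as a block, edgeR called 79 genes, 0.629%, and Hoxb4 was at -0.84 with an adjusted p of 0.844.

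Hoxb3 and Hoxb7 leaned in opposite directions between the B220 fractions without passing a test. Hoxb3 had 14 counts in B220 HIGH against 77 in B220 LOW, of which 67 were in B220 LOW 2. Hoxb7 had 25 counts in B220 HIGH against 1 in B220 LOW, 22.3 times as many once scaled to the group totals (95% counting interval 3.66 to 916.7). Of these counts 18 were in B220 HIGH 1, and without it the ratio was 7.97 (95% counting interval 1.02 to 359.0). It was 36.9 without B220 HIGH 2 and 14.8 without B220 LOW 1, and at least 4.71-fold without B220 LOW 3, which held the 1 count. Without the filter their edgeR log2 fold changes were -2.71 (adjusted p = 0.732) for Hoxb3 and 4.46 (adjusted p = 0.691) for Hoxb7. In both genes the libraries of the fractions overlapped, and Hoxb7 had 0 counts in B220 HIGH 2. B220 HIGH 1, with the highest Hoxb7 level, was also the library with the fewest counts, 10921521 in all. The fractions stood apart in stem cell and LSK markers, at 675 to 974 CPM in B220 HIGH against 340 to 382 CPM in B220 LOW. They stood apart as well in the 9 erythroid and megakaryocyte markers, at 18.6 to 34.6 CPM against 2.95 to 6.03 CPM. The part of these markers in the Hoxb levels was not tested.

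Among the other Hox clusters, Hoxa alone had genes with enough reads to be tested. All 9 listed Hoxc genes and all 9 listed Hoxd genes had too few counts for a test in either comparison. The 11 Hoxa genes summed to 169.5 to 236.5 CPM in wt LSK, against 42.6 to 374.1 CPM in iMLL-ENL total, so these groups overlapped, which the Hoxb sums did not. Of 9 Hoxa genes tested, 1 was called higher and none lower (15.5% and 15.1% over all genes). Their median log2 fold change was 0.62, beside 0.05 for all genes. A Hoxb median is not set beside these, since 1 of the 3 Hoxb genes tested, Hoxb5, could only come out lower. Hoxa9, the Hoxa gene best known in MLL leukemia, was at 85.1 ± 15.3 CPM in wt LSK, against 99.4 ± 78.6 in iMLL-ENL total (SD, n = 3), with an edgeR adjusted p of 0.734, and was singled out after its values were seen.

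**Figure D5:**
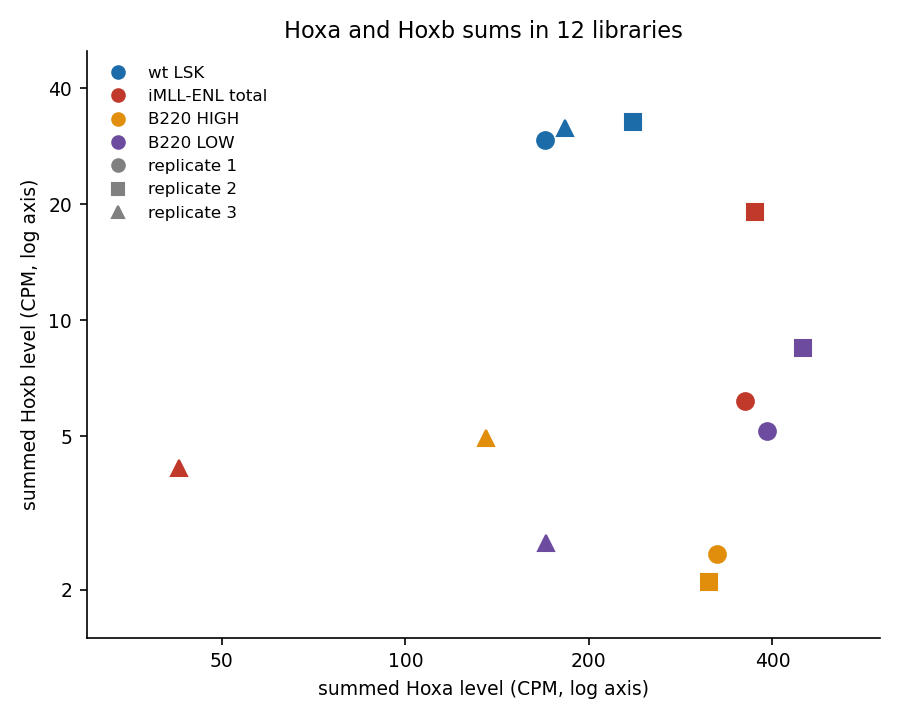
Summed CPM of the 11 Hoxa genes (x axis, log scale) against summed CPM of the 9 Hoxb genes (y axis, log scale) in each of the 12 libraries, coloured by group and shaped by replicate number. The wt LSK libraries lie above all others on the Hoxb axis, at 29.4 to 32.6 CPM, and inside the leukemic range on the Hoxa axis.

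The TALE class includes DNA-binding partners of Hox proteins, such as Pbx and Meis proteins, but a place in this list does not make a gene such a partner. Of 11 listed genes, 9 were tested between iMLL-ENL total and wt LSK. Of these, 5 were called lower, 1 higher and 3 did not pass, with a median log2 fold change of -1.41. Over all genes tested, 15.1% were called lower and 15.5% higher, and no test of the list was made. Pbx4 and Tgif1 fell by 2.98 and 1.41 on the log2 scale (edgeR adjusted p = 0.00677 and 0.00519). Pbx3 was the one that rose, from 20.5 ± 6.39 to 111 ± 77.5 CPM (edgeR adjusted p = 0.0119), and is named because it went the other way. Meis1, named above for its activity in MLL leukemia, was among those called lower than in wt LSK. Its log2 fold change was -1.25 (edgeR adjusted p = 0.0353).

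Regulators that keep Hox genes on include the MLL complex and its partners. Of 23 tested, 2 were called higher and 5 lower, with a median of 0.09, and the shares over all genes were 15.5% higher and 15.1% lower. Mllt3, which encodes the fusion partner AF9, fell from 162 ± 32.7 to 7.32 ± 6.61 CPM (SD, n = 3; edgeR adjusted p = 0.00228). Psip1, which encodes the LEDGF protein that tethers MLL, fell by 0.94, and Aff1, which encodes the fusion partner AF4, rose by 1.05 on the log2 scale (edgeR adjusted p = 0.00439 and 0.00407).

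Of the 15 Polycomb genes, whose products keep Hox genes off, 2 were called higher, 4 lower and 9 did not pass, with a median of -0.15. Over all genes 30.6% were called, so neither of these last counts is read as a result about its list. Cbx2 fell from 29.9 ± 3.24 to 1.55 ± 1.03 CPM (SD, n = 3; edgeR adjusted p = 0.000752) and Phc1 fell by 1.77 on the log2 scale (edgeR adjusted p = 0.000792). The calls of Tgif1, Psip1 and Aff1 were lost when a fold of at least 2 was tested, and that of Pbx4 when all 12 libraries were fitted together. Between B220 HIGH and B220 LOW, 0 genes of any of these lists were called by edgeR or by the alternatives.

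Of 14 other genes listed in and beside the cluster, 10 were in the tables and 5 were tested in the first comparison. None of these 5 was called lower and 1 was called higher (15.1% and 15.5% over all genes), with a median of 0.08. All 5 start 193.2 to 578.5 kb from the Hoxb9 start, outside the cluster. Mir10a, Mir196a-1 and Hoxb13 had too few reads to be tested. Snx11, a sorting nexin gene 496.2 kb from the Hoxb9 start, rose from 3.71 ± 0.451 to 18.1 ± 3.90 CPM (SD, n = 3; edgeR log2 fold change 2.45, adjusted p = 0.00108). Mir10a, which lies between Hoxb5 and Hoxb4, had 4 counts in wt LSK 1 alone among the controls and 1 count in iMLL-ENL total 2.

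The profile most like that of Hoxb4, the member with the most counts, was sought among 12219 genes over the 12 libraries by the root mean square difference of log2(CPM + 1) values centred on each gene's mean. The nearest were Zfp873 at 0.395, the noncoding RNA gene Ftx at 0.461, 4930564C03Rik at 0.471, A830082N09Rik at 0.489 and 1810062O18Rik at 0.505, against a median of 1.20 over the genes compared. The other members were farther, from Hoxb5 at 0.777 and Hoxb3 at 0.865 to Hoxb7 at 1.16. Hoxb1 and Hoxb9, with 0 counts in every library, lay at 1.05. A distance under the median of 1.20 thus does not by itself show a similar profile. The 12 values of every gene come from the same libraries and share their depths. Of the 5, Ftx and 1810062O18Rik were called lower in iMLL-ENL total by edgeR (adjusted p = 0.031 and 0.00851). The call of Ftx was lost in 7 of 13 alternatives and that of 1810062O18Rik in 1.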

How the data were processed

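RNA was measured in 12 libraries made with an unstranded NuGen kit, per the labels' protocols. The deposited tables give, for each NCBI gene ID, unnormalized read counts, in 1 table for wt LSK and iMLL-ENL total and 1 for B220 HIGH and B220 LOW. The authors' CPM tables hold a signal, the counts divided by 1 effective library size per library, checked against the counts. The deposited width per gene in bases (unit: other) was used to give CPM per kb. The submitters' processing notes name edgeR, GRCm38 and mm10. A read aligner or counter is not given in the sources used here. RefSeq symbols matched 23968 of the 24028 IDs and left 60 without one.

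Levels were computed as CPM of the library total, so they can be set side by side across the 2 tables, but no test crossed them. Each comparison was fitted on all genes of its 6 libraries with edgeR 4.0.16 (R 4.3.3): quasi-likelihood F tests, two-sided, with TMM scaling and robust dispersion estimates, on genes kept by filterByExpr at a minimum count of 10. P-values were adjusted by Benjamini-Hochberg over all genes tested and called under 0.05. Alternatives were DESeq2 1.42.0, limma-voom (limma 3.58.1), DESeq2 size factors in edgeR, no filter, a test for a fold of at least 2, 1 fit of all 12 libraries, the replicate number as a block, and each library left out. The tests were tried on simulated data with known changes. Where a group had 0 pooled counts, a ratio was bounded with 3 counts in place of 0 over that group, and it was given with an exact binomial 95% interval where it had 1 to 3. Leaving a library out of these ratios was chosen after seeing the data.

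The groups share replicate numbers. For B220 HIGH and B220 LOW, libraries of one number deviated together from the means of their groups, with correlations of 0.489, 0.237 and 0.383 over 10803 genes, each above 0.1. The labels are silent, so on the strength of this check the numbers were treated as pairs in the replicate block alternative. The main fit of this comparison did not use the pairs, and its p-values ignore them. The block result changed no Hoxb call there. Same-numbered libraries of iMLL-ENL total also correlated with B220 HIGH (0.537, 0.243 and 0.165) and with B220 LOW (0.444, 0.354 and 0.126). Some differently numbered libraries came near the lowest of these values. The correlation was 0.120 for iMLL-ENL total 3 with B220 HIGH 2 and 0.119 for iMLL-ENL total 2 with B220 LOW 3. The pairing of iMLL-ENL total 3 is therefore weak. For wt LSK and iMLL-ENL total the numbers were not taken to pair them.

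The members and lists were chosen with earlier results of these data known. Named were all members, up to 3 called genes of each list by smallest p, and the 5 genes with the profile nearest that of the member with the most counts. Results for some genes that this rule takes are not reported here. Pbx3, Meis1, Hoxa9, Mir10a and Hoxb13 were named after their values were seen.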

Additional observations from a re-analysis of the deposited data

How the results depend on the processing

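Over 27 results for single genes and 262 alternatives, 234 kept their direction and side of the threshold, 21 lost a call, 7 gained one and 0 changed direction. Among the 27, Hoxb2, Hoxb6, Hoxb7 and Hoxb8 in the first comparison had 0 alternatives. The same held for Hoxb5 and Hoxb7 in the second. These results were fitted only without the filter, so nothing was varied for them in this tally. Of the 9 Hoxb genes, 1 was called between iMLL-ENL total and wt LSK, and the alternatives called 1 to 3, namely 2 by DESeq2, 2 by limma-voom, 2 with the replicate block and 1 to 3 with a library left out. All genes called there numbered 4221, against 2047 for a fold of at least 2, 2480 with all 12 libraries in 1 fit and 2636 to 4528 with a library left out. The lowest of these were 2636 without wt LSK 3 and 2658 without wt LSK 1. Of the listed genes 21 were called, and 8 for a fold of at least 2. Between B220 HIGH and B220 LOW edgeR called 0 genes, DESeq2 232, no filter 22, the replicate block 79, the fit of all 12 libraries 36, and with a library left out 0 to 96, the highest without B220 HIGH 1 and 3 without B220 LOW 1. No Hoxb gene was called in that comparison under any alternative. The cause of these shifts was not tested.

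Depth limits most members. Hoxb1, Hoxb8 and Hoxb9 allow no comparison, and Hoxb2, Hoxb6 and Hoxb7 rest on 24, 36 and 57 counts over 12 libraries. The same-numbered deviations of wt LSK and iMLL-ENL total correlated at 0.0597, 0.275 and -0.038, so the call of Hoxb3 under the replicate block rests on numbers that do not pair these libraries. An absent call does not show equal levels.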

Other observations

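Hoxb13, which lies apart from Hoxb1 to Hoxb9 at the far 5' side of the cluster (chr11:96194316-96196610 on GRCm38), is no member of the set and was singled out after its values were seen. It had 0 counts in all 3 wt LSK libraries. It had 30 counts in iMLL-ENL total 1, 29 in B220 HIGH 1 and 125 in B220 LOW 1, which is 1.39, 2.66 and 8.19 CPM. In the other 6 leukemic libraries it had 0 counts, except 1 count each in B220 LOW 2 and B220 LOW 3. The reads of Hoxb13 thus lay in the leukemic libraries numbered 1, where the labels do not say whether a number marks a mouse. Hoxb7 also had its highest level in one of these libraries, 1.65 CPM in B220 HIGH 1, but 0 counts in iMLL-ENL total 1 and B220 LOW 1.

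The summed Hoxa level was lowest in the library numbered 3 of each leukemic group, at 42.6 CPM in iMLL-ENL total 3, 136 CPM in B220 HIGH 3 and 170 CPM in B220 LOW 3, against 315 to 449 CPM in the other 6 leukemic libraries. The Hoxb sums in these 3 libraries were 4.14, 4.96 and 2.65 CPM. The first and the last were also the lowest Hoxb sums of their groups, and 4.96 CPM was the highest of B220 HIGH.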
